A study of Mus musculus with 4 samples.

Results

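Hearts of control mouse embryos were compared between E13.5 and E14.5 (days of embryonic development), separately in cells rich in cardiomyocyte RNA and in cells with little of it. Cells of the control libraries were kept with at least 1000 UMIs (unique molecular identifiers, each standing for a captured transcript) and at most 20% mitochondrial UMIs. A kept cell was placed in the myocyte range when the sarcomere genes Tnnt2, Actc1, Myh6 and Myh7 together made up at least 1.5% of its UMIs, and in the low range when they made up less than 1%. The ranges held 5869 of the 24849 cells of the series: 1288 and 1566 myocyte-range cells at E13.5 and E14.5, and 2032 and 983 low-range cells. The 39 and 46 cells between the thresholds were left out. Just inside the myocyte threshold, 94 cells at E13.5 and 70 at E14.5 had 1.5 to 2.0%, and just inside the low threshold 22 and 61 had 0.5 to 1.0%.

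Per the labels, both controls were Wt1 CreERT2/+; Rosa26mTmG/+, so both carried a tamoxifen-dependent Cre recombinase at Wt1, a gene of the epicardium and its progeny, and a membrane colour reporter. The labels name no floxed allele in these hearts. Each stage was a single Drop-seq library, a method that reads short tags near the 3' ends of transcripts of single cells in droplets. Differences between the stages therefore have no replicate check and no p-value. The libraries of Wt1 CreERT2/+; Lats1/2 F/F; Rosa26mTmG/+ hearts (Lats1/2 CKO, conditional knockout of the Hippo pathway kinases Lats1 and Lats2) at the same stages gave a second E14.5 against E13.5 pair, which shares no sample with the control pair, and its values stand beside the control values. The sources used here do not give the number of embryos per library, their sex or the tamoxifen schedule.

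At these stages the ventricular wall of the mouse heart thickens by cardiomyocyte division, the endocardial cushions are remodelled into valves, coronary vessels take up blood flow, and fibroblasts derived mainly from the epicardium spread through the wall. Cardiomyocytes build sarcomeres from thick filaments of myosin and thin filaments of actin, tropomyosin and troponin, and their mitochondria multiply. Highly expressed genes have often left processed pseudogenes in the genome, intronless copies made by reverse transcription of their messenger RNA. A short 3' read from such a gene can match its copies as well as the gene itself, so the count depends on how the reads were assigned.

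Values are CPM, UMIs of a gene per 1000000 UMIs summed over the cells of a range, with ribosomal protein, Gm-number, Rik and -ps genes, mitochondrial genes and globins outside the total. A gene was said to rise or fall when it had at least 20 CPM in the higher library, changed at least 2-fold and had a 95% counting interval of the ratio (exact conditional binomial) clear of no change. These intervals cover counting error only and say nothing of the spread between hearts. Where 2 log2 ratios stand together in parentheses, the first is the control and the last the Lats1/2 CKO.

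The libraries differed in several ways beside the stage label. The filter kept 74.8% of the deposited control cells at E13.5 and 36.9% at E14.5, most of the others having under 1000 UMIs (1122 and 4438 cells). Median depth was 2424 and 1865 UMIs in the myocyte range and 1911 and 1580 in the low range, with 4005671, 3471599, 4569238 and 1669840 UMIs behind the CPM values. Myocyte-range cells were 38.3% (Clopper-Pearson 95% interval 36.7 to 40) of the kept cells of the earlier control and 60.3% (58.4 to 62.2) of the later one, and 35.3% and 59.9% in the Lats1/2 CKO. Between any pair of libraries 0 or 1 kept cells shared a barcode. The sex of the embryos differed as well. The Y-linked gene Eif2s3y had 93.4 CPM in myocyte-range cells at E13.5 and 0 counts at E14.5, which allows up to 0.864 CPM, and 76 and 45.2 CPM in the Lats1/2 CKO. Y-linked Ddx3y stood at 53.7 and 1.15 CPM. Xist, which is transcribed from the inactive X chromosome, stood at 99.9 and 219 CPM, and at 86.5 and 205 in the Lats1/2 CKO. In the control pair, stage and embryo sex cannot be told apart. The adult-type globin gene Hbb-bs stood at 151 and 2101 CPM and the embryonic globin gene Hbb-y at 1132 and 942 in myocyte-range cells, and at 578 and 4955, and 4531 and 4218, in the low range. Adult-type globin RNA was thus higher at E14.5 in both ranges, while the Hbb-y log2 ratios were -0.27 and -0.10. In the Lats1/2 CKO Hbb-bs had log2 ratios of 0.72 and 1.01. The part of these differences in the results below was not tested.

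The sequences that bear on the largest ratios are those of genes with processed copies. Each 60-base stretch of coding sequence is printed beside the same stretch of a processed pseudogene that has its own row in the table, because UMIs were split between these rows. Sequences and positions are from the GENCODE M21 annotation of GRCm38/mm10, bases that differ within a pair are in capitals, and positions count from 1 at the left end.
Fau: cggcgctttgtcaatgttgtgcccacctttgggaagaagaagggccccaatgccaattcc
Gm9843: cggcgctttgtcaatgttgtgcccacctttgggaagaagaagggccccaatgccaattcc
Tpt1: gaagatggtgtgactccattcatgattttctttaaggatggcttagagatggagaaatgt
Tpt1-ps3: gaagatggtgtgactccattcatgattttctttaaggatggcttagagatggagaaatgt
Cox7c: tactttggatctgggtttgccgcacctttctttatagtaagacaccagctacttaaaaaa
Gm12338: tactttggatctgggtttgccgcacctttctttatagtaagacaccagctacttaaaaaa
Ppia: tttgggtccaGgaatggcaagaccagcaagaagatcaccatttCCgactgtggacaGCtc
Gm5777: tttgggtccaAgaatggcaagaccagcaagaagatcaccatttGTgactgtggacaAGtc
The Fau stretch lies at chr19:6059412-6059471 on the plus strand and its copy Gm9843 at chr16:76403254-76403313 on the minus strand. The match between them ran over 402 bases at 100% identity. Tpt1 (chr14:75847301-75847360, plus strand) and Tpt1-ps3 (chr6:99877819-99877878, minus strand) were identical over 519 bases. Cox7c (chr13:86045756-86045815, minus strand) and Gm12338 (chr11:75599766-75599825, minus strand) were identical over 192 bases. Ppia (chr11:6419548-6419607, plus strand) and Gm5777 (chr10:57782739-57782798, plus strand) matched at 93.97% over 448 bases, and differed within the printed stretch at G11A, C44G, C45T, G57A and C58G. A read that lies wholly within an identical match carries no base that tells the gene from its copy. Bases beyond the matches were not compared, and where the reads fell was not looked at.

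Many of the largest control ratios in both ranges belonged to genes of this kind. Fau, which encodes a ubiquitin-like protein fused to a ribosomal protein, went from 17.2 to 764 CPM in myocyte-range cells (log2 ratio 5.46, interval 5.13 to 5.84) and from 39.6 to 852 in the Lats1/2 CKO. Over the same cells the Gm9843 row went from 311 to 477 CPM in the control and from 623 to 358 in the Lats1/2 CKO. Of the UMIs on both rows, Fau thus held 5.25% at E13.5 and 61.6% at E14.5, and 5.98% and 70.4% in the Lats1/2 CKO. Ppia, the gene of cyclophilin A, a peptidyl-prolyl isomerase, went from 29 to 684 CPM, and its share against its copies' rows from 9.13% to 37.5%. For Tpt1, which encodes a translationally controlled tumour protein, the CPM went from 41.4 to 506 and the share from 14% to 64.5%. Cox7c, a subunit of cytochrome c oxidase, had 189.7 and 1308 CPM with shares of 32.6% and 51.6%. The share on the gene's own row was higher at E14.5 for all 10 genes looked at this way (also Ptma, Hnrnpa3, Hnrnpa1, Myl6, Usmg5 and Cycs), in both ranges and in both stage pairs. The CPM of the gene and copy rows together was also higher at E14.5 for each of the 10, in both ranges and both pairs.

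**Figure D1:**
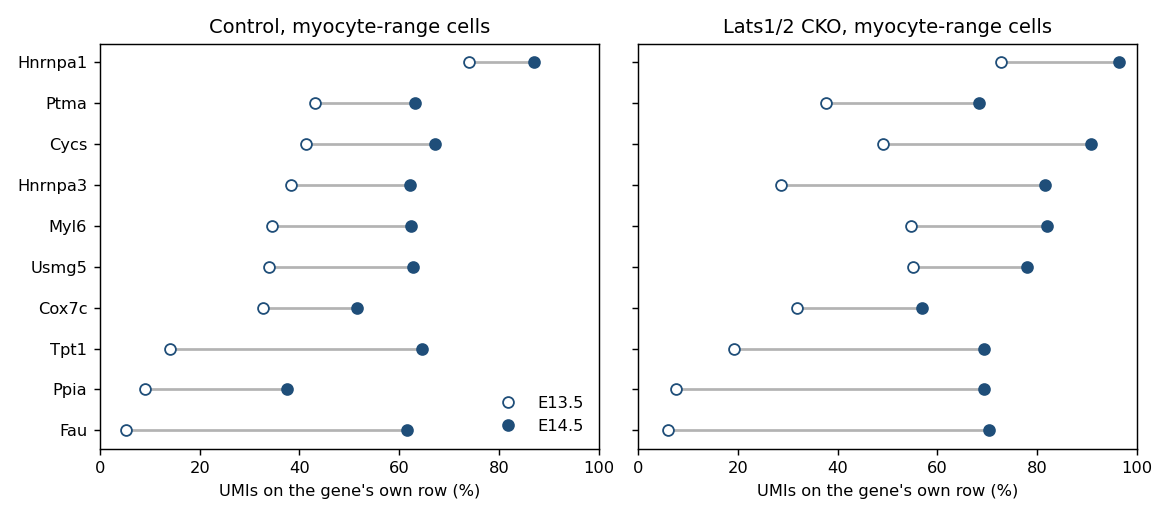
Share of UMIs on the gene's own row (percent, x axis) against the rows of the gene and its processed pseudogenes together, for 10 genes in myocyte-range cells; open points are E13.5, filled points E14.5, the left panel is the control pair and the right panel the Lats1/2 CKO pair. In each panel all 10 filled points lie to the right of the open points, from 5.25% to 61.6% for Fau in the control.

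A search of the 3' ends of coding transcripts against 10237 processed pseudogenes found a match for 2702 coding genes (at least 90% identity over 100 bases in the last 500, or over at least 50% of the pseudogene). This search was chosen after the data were seen. The share of genes that rose grew with the number of matching copies. In control myocyte-range cells it was 2.13% of 5531 genes with no match, 2.94% of 749 with 1, 7.55% of 384 with 2 to 4, 17.2% of 122 with 5 to 9 and 34.1% of 44 with 10 or more. The Lats1/2 CKO pair, at 0.597% and 25% for no match and 10 or more, and the low range, at 2.95% and 35.4%, showed the same order. Ribosomal protein genes, a family with many processed copies, had a median log2 ratio of 1.24 in the myocyte range and 1.04 in the low range, and 0.65 and 0.73 in the Lats1/2 CKO. Their share of all UMIs was 3.04% and 5.13% in myocyte-range cells and 3.73% and 6.31% in the low range. Of all genes with a copy, 88 of 1375 rose in the myocyte range (6.4%) and 4 fell (0.291%), and 94 of 1473 rose in the low range (6.38%) and 10 fell (0.679%). The Lats1/2 CKO pair had 54 rising in each range (3.93% of 1373 and 3.64% of 1482), while 2 (0.146%) and 5 (0.337%) fell. Gm-number genes, many of them pseudogenes, moved in opposite directions in the stage pairs. In the myocyte range 378 of 816 were at least 2-fold higher and 36 lower at E14.5 in the control, against 30 higher and 258 lower in the Lats1/2 CKO. The results below therefore take genes without a processed copy, by the fixed list, by name or by sequence, and the cause of the copy-linked differences was not tested.

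**Figure D2:**
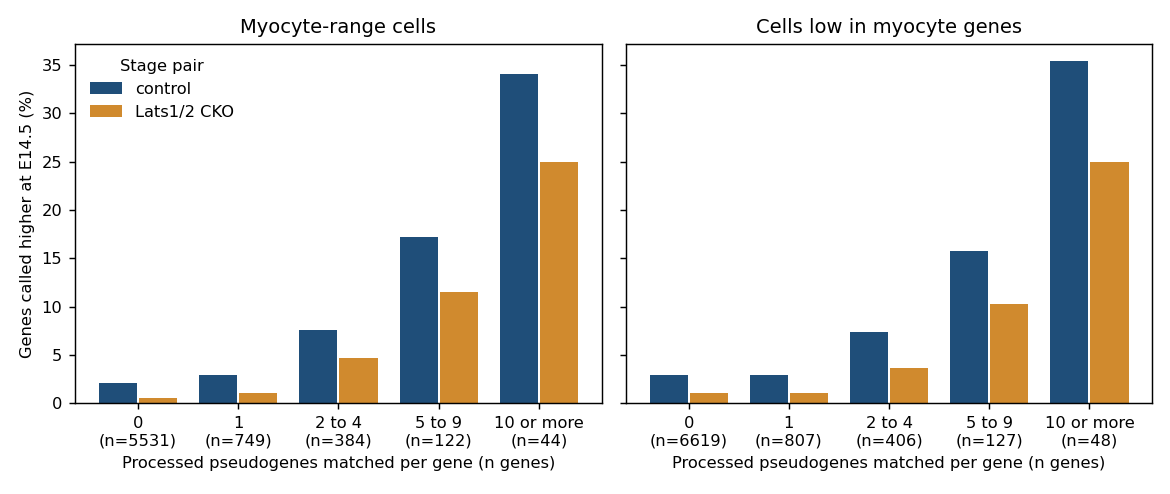
Percent of tested genes that rose at E14.5 (y axis) by the number of processed pseudogenes matching the gene (x axis, with the number of genes), in myocyte-range cells (left) and cells low in myocyte genes (right), for the control and Lats1/2 CKO stage pairs. Control bars rise from 2.13% with no match to 34.1% with 10 or more in the myocyte range, and from 2.95% to 35.4% in the low range.

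Most genes differed little between the stages. In myocyte-range cells 205 of 6830 genes tested rose (3.0%) and 46 fell (0.673%), and 76.9% had a log2 ratio under 0.5 in size. With the CPM total taken over all genes of the table the counts were 141 and 65, so that 68.4% of the calls were upward in place of 81.7%. Among the 5455 genes without a copy 117 rose (2.14%) and 42 fell (0.77%), with a median log2 ratio of -0.06. In low-range cells 286 of 8007 rose (3.57%) and 106 fell (1.32%), or 193 and 155 with the total over all genes (55.5% upward in place of 73.0%). Among the 6534 low-range genes without a copy 192 rose (2.94%) and 96 fell (1.47%), with a median of -0.05. In the Lats1/2 CKO 96 of all 6803 genes rose (1.41%) and 30 fell (0.441%) in the myocyte range, and 162 of 8095 rose (2.0%) and 89 fell (1.1%) in the low range. Among genes without a copy that pair had 42 of 5430 higher (0.773%) and 28 lower (0.516%) in the myocyte range, and 108 (1.63%) and 84 (1.27%) of 6613 in the low range. Of the 117 myocyte-range genes that rose in the control 11 also rose in the Lats1/2 CKO, and of the 42 that fell 1 also fell. The low-range counts were 32 of 192 and 13 of 96. Of genes with copies, 43 of 88 and 39 of 94 that rose in the control also rose in the Lats1/2 CKO.

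In myocyte-range cells the genes without a copy that fell most clearly at E14.5 included some of the abundant ones. Mest, an imprinted gene expressed from the paternal allele (chr6:30723547-30748465, GRCm38/mm10), fell from 1606 to 758 CPM (log2 ratio -1.08, interval -1.15 to -1.02), and stood at 1013 and 1072 CPM in the Lats1/2 CKO. Cst3, which encodes the secreted protease inhibitor cystatin C (chr2:148871722-148875692), fell from 1892 to 922 (-1.04, -1.1 to -0.98), with a Lats1/2 CKO log2 ratio of -0.29. With E14.5 clusters weighted as at E13.5 the log2 ratios were -0.70 for Mest, -0.86 for Cst3, and, of the genes named next, -0.86 for Tusc3 and -0.93 for Tagln, all under the 2-fold rule. Ssr3, a subunit of the translocon-associated complex of the endoplasmic reticulum, fell from 453 to 196 (-1.21, -1.34 to -1.08; -0.63 in the Lats1/2 CKO), and Tusc3, an oligosaccharyltransferase subunit of the same membrane, from 143 to 65.4 (-1.12 and -0.27). Tagln, an actin-binding gene of smooth muscle that embryonic cardiomyocytes also express, fell from 390.2 to 183 (-1.09 and -0.77). The Mediator subunit gene Med21 fell from 265 to 121 (-1.13 and -0.81), and Stbd1, whose product binds glycogen, from 169 to 76.9 (-1.13 and -0.53).

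Plin1, a lipid droplet coat gene, fell from 55.2 to 3.74 CPM in the myocyte range and from 66.3 to 4.79 in the low range, and Lats1/2 CKO cells held 6.08 and 2.18. The control E13.5 library thus stood apart from the other libraries for Plin1. The transcript listed under the clone name RP23-174M4.2 did the same, at 1626 and 361 CPM in the control and 255 and 179 in the Lats1/2 CKO. Hs6st2, a heparan sulfate 6-O-sulfotransferase gene, fell from 52.4 to 19 (-1.46), Dtd2 from 55.4 to 21 (-1.39) and the water channel gene Aqp4 from 67.9 to 27.4 (-1.31). None of these 3 fell in the Lats1/2 CKO, where their log2 ratios were -0.29, -0.14 and 0.26.

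Of the leading rising genes without a copy or clone name, Pam16 and Ptms rose in both stage pairs. Pam16, a subunit of the mitochondrial protein import motor (chr16:4616464-4624988), rose from 21.2 to 117 CPM (2.46, 2.12 to 2.82) and from 38.8 to 119 in the Lats1/2 CKO. Ptms, which encodes the small acidic protein parathymosin (chr6:124913681-124920103), rose from 103 to 339.6 (1.72, 1.56 to 1.89) and from 154 to 345. Pam16 rose in both pairs within 8 of 11 myocyte clusters, and Ptms within 6 of 11 and within 8 of 15 low-range clusters. Pam16 was also a leading gene of a cluster, described below, of 29 control cells at E13.5 and 445 at E14.5. Another 6 rows among the leading ratios had clone or miRNA host names, such as RP23-207N2.1 (5.49 to 93 CPM) and Mir692-1 (7.49 to 51.6). Of these only RP24-490A22.9 rose in the Lats1/2 CKO (1.92, against 2.84 in the control). Zbed5, Lsm7, Hnrnpa3 and Aldoart1 also met the first naming rule, but had matching copies by sequence. They went from 2.75 to 90.7, 6.99 to 113, 41.4 to 319.7 and 13 to 77.5 CPM.

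The other leading group of rising genes encodes fibrillar collagens and matrix proteins of fibroblasts. Col1a2 and Col1a1, the chains of type I collagen, rose from 65.4 to 304 CPM (2.21, 2.02 to 2.42) and from 30.2 to 138 (2.19, 1.9 to 2.49). Col3a1 of type III collagen rose from 126 to 378 (1.58; 0.57 and under the rule with clusters weighted as at E13.5), and the microfibril gene Mfap4 from 12.5 to 55.3 (2.14). None of the 4 passed the rule in the Lats1/2 CKO, with log2 ratios of 0.38, 0.75, -0.45 and -0.58. Of the 12 measured copy-free genes of the fibroblast list 6 rose and 0 fell, against 2.14% and 0.77% of all copy-free genes. The median was 1.21, and -0.32 in the Lats1/2 CKO. Those that rose included the transcription factor gene Tcf21 (8.24 to 23 CPM) and the proteoglycan gene Dcn (32 to 104). Interstitial matrix genes rose in 8 of 22 and elastic fibre genes in 4 of 12 cases, such as Postn (66.4 to 188) and elastin, Eln (43.2 to 131). These genes were concentrated in a cluster of myocyte-range cells led by Col3a1, Col1a2 and Dcn, which carried 9 of 9 fibroblast markers. It held 67 cells (5.2%) at E13.5 and 203 (13%) at E14.5, and 109 and 95 cells (6.43% and 5.48%) in the Lats1/2 CKO. Without it and a cluster of 11 and 43 cells with endothelial genes, 3 of 7 fibroblast genes rose (median 0.46). So did 5 of 18 interstitial matrix genes (median 0.08) and 1 of 6 elastic fibre genes (median 0.05, from 0.78). Over all copy-free genes tested in the cells left, 99 of 5363 rose. Col1a2 then went from 16.4 to 74.0 CPM (2.16) and Col1a1 from 6.73 to 38 (2.48), still called but at a far lower level, while Mfap4 went from 2.15 to 10.3 CPM and was no longer tested. Removal of these clusters was chosen after the data were seen.

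**Figure D3:**
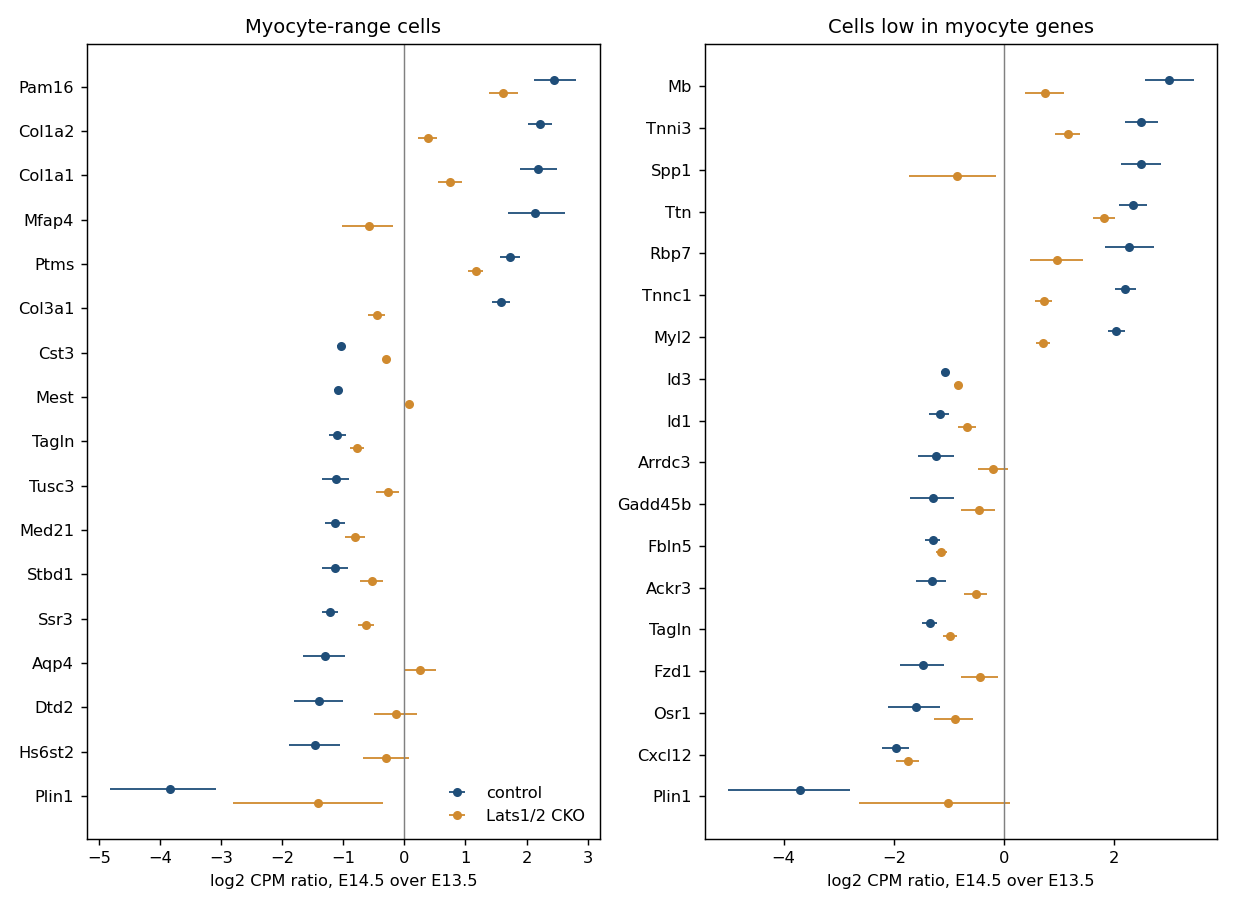
Log2 ratio of CPM at E14.5 over E13.5 (x axis) for the leading genes without a processed copy or clone name, 17 in myocyte-range cells (left) and 18 in cells low in myocyte genes (right); points are the control (blue) and Lats1/2 CKO (orange) pairs and bars are 95% counting intervals. Control ratios run from -3.83 for Plin1 to 2.46 for Pam16 on the left and from -3.71 for Plin1 to 3.0 for Mb on the right, and most orange points lie nearer 0.

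Sarcomere genes as a group had no common direction in the myocyte range. Of 31 measured copy-free genes of the thick and thin filaments 1 rose and 0 fell. The median log2 ratio was -0.01 against -0.06 over all copy-free genes. Intervals lay above 0 for 13 and below 0 for 14, against 21.8% and 28.5% of all copy-free genes. The 31 include the selecting genes, whose summed share the range rule itself bounds from below. The gene that rose, Tnnt2 of cardiac troponin T, is a selecting gene and is given as a description (11237 and 22654 CPM, 1.01 and 0.80 in the Lats1/2 CKO). The ventricular myosin light chain genes Myl2 and Myl3 had log2 ratios of -0.21 and -0.22, the embryonic and atrial light chain gene Myl4 -0.41, and tropomyosin Tpm1 0.14. Slow skeletal troponin T, Tnnt1, stood at 824 and 1551 CPM (0.91, under the rule) with a Lats1/2 CKO value of -0.33. Among 16 genes of calcium handling and excitation 1 rose, against 2.14% of all copy-free genes. It was Jph2, which ties the sarcoplasmic reticulum to the cell membrane (41.4 to 92.2 CPM, 1.15, interval 0.88 to 1.43, and 0.43 in the Lats1/2 CKO). Trdn of the calcium release complex stood at 0.19 in the control and rose in the Lats1/2 CKO (1.02).

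Genes of the chambers and wall layers leaned downward without reaching 2-fold. Medians were -0.23 for 9 atrial, -0.30 for 9 ventricular and -0.37 for 11 trabecular and compact wall genes, and 8 of those 11 had intervals below 0, against 28.5% of all copy-free genes tested in the range. In the Lats1/2 CKO the medians were 0.13, 0.03 and 0.06. Nppa, the atrial natriuretic peptide gene of atria and trabeculae, stood at 3221 and 2494 CPM (-0.37 and 0.91 in the Lats1/2 CKO). The trabecular gene Cited1 stood at 836 and 494 (-0.76 and 0.06), and Nppb at 602 and 409 (-0.56 and -0.52). Of these lists only Prrx1, a mesenchymal gene of the wall list, rose (10.7 to 25.3 CPM), and without the fibroblast and endothelial clusters 0 of 10 wall genes did.

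Of the respiratory chain and ATP synthase list 29 genes had no copy. Among them 2 rose and 0 fell, against 2.14% and 0.77% of all copy-free genes. Intervals lay below 0 for 20, against the same 28.5% of all copy-free genes (median -0.22, and -0.14 in the Lats1/2 CKO). Cox8b, the heart and muscle form of a cytochrome c oxidase subunit, rose from 101 to 211 CPM (1.06) and by a like 1.01 in the Lats1/2 CKO. Uqcrc1 of complex III rose from 5.24 to 36.3 (2.76 and 0.42), and led a cluster, described below, of 29 and 445 control cells. The ATP synthase genes Atp5b and Atp5a1 stood at -0.41 and -0.57. In the fatty acid list (19 genes, median -0.08) Fabp4, a fatty acid carrier of vascular endothelium, rose from 5.74 to 38.3 (2.71 and 1.36), and the oxygen store myoglobin, Mb, stood at 1066 and 1636 (0.62). Glycolysis and hypoxia genes had a median of 0.10 (18 genes, 0 called), with the angiogenic factor gene Vegfa at 141 and 228 CPM (0.69) and called in the Lats1/2 CKO (1.06).

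S phase genes were lower in sum at E14.5 in both stage pairs. The 19 copy-free genes summed to 2084 and 1622 CPM in the control and 1813 and 1487 in the Lats1/2 CKO, with medians of -0.27 and -0.26, and 0 passed the 2-fold rule. G2 and M phase genes summed to 3718 and 4029 CPM (18 genes, median 0.19, 0 called). The dUTPase gene Dut and the replication fork gene Tipin had log2 ratios of -0.81 and -0.76, and the condensin gene Smc4 0.55. In the imprinted growth list (15 genes, median -0.17) Mest and Ndn fell, against 0.77% of all copy-free genes. Ndn went from 115 to 51.6 CPM (-1.15, -1.41 to -0.90). Igf2, the fetal growth factor gene, stood at 3131 and 2677 (-0.23). The 22 cardiac transcription factor genes had a median of 0.02 and 0 calls.

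Clustering split the control myocyte-range cells into 11 clusters, of which 1, led by Sln, met the rule for an atrial name and the others stayed unnamed. A cluster led by the S phase genes Cdt1, Ccne2 and Mcm2 held 231 cells at E13.5 (17.9%) and 46 at E14.5 (2.94%), a ratio of shares of 0.164 (0.117 to 0.226) and of 0.227 in the Lats1/2 CKO. A cluster led by the mitotic genes Aspm, Kif23 and Aurka went from 18.8% to 10.7% (0.568, 0.463 to 0.694; 0.593). These were the deepest cells, with median counts of 4425 and 4070 UMIs. Another cluster with cell cycle genes (Spc25, Esco2, Melk), at a median of 1559 UMIs, went the other way, from 10.1% to 17.8% (1.77; 1.71). Since depth moved with these shares and the E14.5 library was shallower, its part was not tested. The unnamed cluster led by Nppa, Slit2 and Bmp10 carried 4 atrial markers (Nppa, Myl4, Stard10 and Kcnj3), so it is not read as trabecular or atrial. This cluster went from 93 to 30 cells (7.22% to 1.92%, ratio 0.265, 0.170 to 0.404), with 0.709 in the Lats1/2 CKO. A cluster whose leading genes included Uqcrc1, Mir692-1, Pam16 and clone-named rows held 29 cells at E13.5 and 445 at E14.5. It was thus mostly 1 control library (ratio of shares 12.6). It held 249 and 721 Lats1/2 CKO cells (2.83). The cluster led by Cited4 and Y-linked Eif2s3y held 283 and 81 (0.235; 0.403).

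Within myocyte clusters few genes passed in both stage pairs, between 5 and 32 of the 3008 to 3826 copy-free genes tested (at least 50 CPM). Tagln fell in both pairs in 3 clusters, for example from 1186 to 366 CPM in the cluster led by Clu and Rspo3 (-1.69 and -1.54), where 6.0% of genes fell. Tnni2, a fast skeletal troponin I gene, fell in the mitotic cluster from 325 to 122 (-1.41 and -1.01; 2.39% fell), but rose in both pairs in the cluster led by Tnnt1 and Mb (1.09 and 1.5). In the Nppa and Bmp10 cluster the skeletal actin gene Acta1 fell from 652 to 233 (-1.45 and -1.43) and Mb from 649 to 204 (-1.62 and -1.22). In the same cluster the insulin-like growth factor binding protein gene Igfbp5 rose from 128 to 451 (1.82 and 1.24) and the calcium channel subunit gene Cacna2d2 from 40.6 to 335 (3.02 and 3.81), where 5.41% of genes rose and 2.78% fell. Mb thus stood lower at E14.5 in this cluster and higher over the range as a whole. In the atrial-like cells Acta1 fell from 514 to 229 (-1.15 and -1.21) and the homeodomain gene Hopx from 568 to 252 (-1.16 and -1.85), among 4.39% of genes that fell.

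In the cells low in myocyte genes, most of the leading rising genes without a copy or clone name were genes of the cardiomyocyte itself. Spp1 and Rbp7, given below, were the others. The clone-named rows RP23-402P24.7 (2.85 to 50.9 CPM, 4.12 and 0.04) and RP23-207N2.1 (8.32 to 103, 3.62 and -0.14) ranked above them all. Of 29 measured copy-free filament genes 19 rose and 0 fell, against 2.94% and 1.47% of all copy-free genes. Those that rose included the 4 selecting genes, whose share the range itself caps. The median log2 ratio was 1.52 against -0.05 over all copy-free genes, and 0.71 in the Lats1/2 CKO. Mb went from 12.7 to 102 CPM (3.0, 2.57 to 3.46; 0.75), cardiac troponin I, Tnni3, from 30.2 to 171 (2.5 and 1.16) and the giant filament gene Ttn from 43.1 to 219.8 (2.35 and 1.82). Tnnc1 rose from 79.9 to 369 (2.21) and Myl2 from 122 to 505 (2.04). Tnnt2, a selecting gene and so a description, was higher at E14.5 in 15 of 15 clusters in both pairs. Over these clusters its lowest, median and highest levels were 51.9, 142 and 2940.3 CPM in the E13.5 library, against 636, 1091 and 4003 in the E14.5 library. In macrophage-like cells, which do not make sarcomeres, Tnnt2 went from 131 to 1091 CPM, and in endothelial-like cells of cluster 1 from 51.9 to 636. Another set, 31 copy-free filament genes without the selecting genes and with no CPM minimum, was summed in each cluster. Outside the cardiomyocyte-like cluster this sum had a median of 3102 CPM over 14 clusters at E13.5 and 5305 at E14.5. It was higher at E14.5 in 14 of 14 (13 of 14 in the Lats1/2 CKO). Myocyte-range cells were also a larger share of the E14.5 library, and the part of free RNA from them was not tested.

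**Figure D4:**
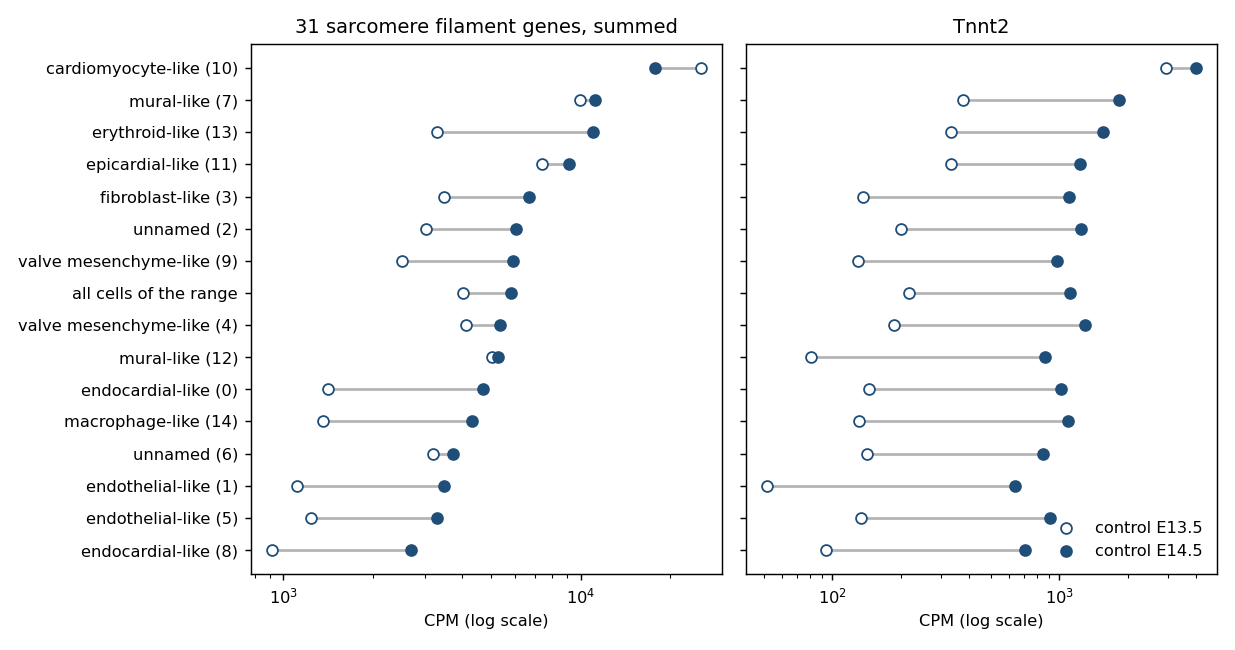
CPM (log x axis) of 31 copy-free filament genes without the selecting genes, summed (left), and of Tnnt2 (right) in each cluster of control cells low in myocyte genes. Open points are E13.5, filled points E14.5. Tnnt2 is higher at E14.5 in all 15 clusters, from 51.9 to 636 CPM in endothelial-like cluster 1, and the filament sum is higher in all but the cardiomyocyte-like cluster; the highest filament sums outside it are in mural-like cluster 7, which makes its own contractile proteins.

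Beside Plin1 and RP23-174M4.2, the leading low-range genes that fell included some of vessel walls. Cxcl12, a chemokine gene of vessel walls (chr6:117168535-117181367), fell from 359 to 91.6 CPM (-1.96, -2.22 to -1.73) and from 346 to 103 in the Lats1/2 CKO. Fbln5 of elastic fibres (chr12:101746565-101819055) fell from 788 to 321 (-1.29, -1.43 to -1.16) and from 968 to 441. Tagln fell from 709 to 278 (-1.35 and -0.97), Osr1 from 80.8 to 26.3 (-1.6 and -0.90) and the Wnt receptor gene Fzd1 from 98 to 35.3 (-1.46 and -0.43). The smooth muscle genes Cnn1 and Actg2 fell from 114 to 56.3 (-1.01 and -1.72) and from 76.4 to 33.5 (-1.18 and -2.22), and Acta2 stood at 709 and 367 (-0.95). These falls went with fewer cells of mural-like cluster 7, led by Cxcl12, Fbln5 and Rgs5. With clusters weighted as at E13.5, Cxcl12 had a log2 ratio of -0.79, Tagln -0.73, Osr1 -0.68, Fzd1 -0.80 and Fbln5 -0.18, all under the rule. Within cluster 7 Cxcl12 stood at 2520.1 and 1419.9 CPM (-0.82) and Fbln5 at 4907 and 4089.9 (-0.26). Of the 18 smooth muscle and pericyte genes 3 fell, 6 had intervals above 0 and 7 below, against 1.47%, 17.9% and 23.1% of all copy-free genes. The median was 0.02 (-0.62 in the Lats1/2 CKO). The 1 that rose was Abcc9, a potassium channel subunit gene of pericytes (12.7 to 28.7, 1.18 and 0.82). Ndufa4l2, another pericyte gene, rose from 4.6 to 37.1 (2.99 and 1.05).

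Id3 and Id1, inhibitors of basic helix-loop-helix factors and known targets of bone morphogenetic protein signalling, fell from 2007 to 955 CPM (-1.07, -1.15 to -0.99; -0.83) and from 389 to 173 (-1.17, -1.35 to -0.99; -0.66). Id3 was lower at E14.5 in all 15 control clusters, from -0.05 in endocardial-like cluster 8 to -1.47 in the erythroid-like cluster. In fibroblast-like cells Id3 went from 2284 to 975 CPM (-1.23), in endocardial-like cluster 0 from 1412 to 836 (-0.75) and in epicardial-like cells from 705 to 359.9 (-0.96). With clusters weighted as at E13.5 the log2 ratio of Id3 was -0.97, just under the rule. Of the 46 growth factor and morphogen genes 2 fell, 1 rose and 24 had intervals below 0, against 23.1% of all copy-free genes tested in the low range (median -0.32; -0.16 in the Lats1/2 CKO). The 1 that rose, Pdgfb, encodes the endothelial ligand that draws pericytes to vessels (12 to 35.3, 1.55 and 1.17). The secreted Wnt modulator gene Sfrp2 stood at 892 and 456 (-0.97) and fell in the Lats1/2 CKO (-1.31). Ackr3, a scavenging receptor for the Cxcl12 protein, fell from 190.4 to 76.7 (-1.31 and -0.51). The stress-responsive genes Arrdc3 (-1.22 and -0.19) and Gadd45b (-1.29 and -0.46) also fell in the control, and the difference between the pairs was not tested.

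Genes of coronary endothelium rose in 5 of 23 cases, against 2.94% of all copy-free genes, with 0 falling. The median was 0.27, and 0.25 in the Lats1/2 CKO. Intervals lay above 0 for 11 and below 0 for 5, against 17.9% and 23.1% of all copy-free genes. With each cell weighted equally the median was 0.09 over 21 genes, and 0.21 in the Lats1/2 CKO. Fabp4 went from 399 to 1143 CPM (1.52, 1.43 to 1.61; 0.91), the fatty acid transporter gene Cd36 from 65.7 to 134 (1.03 and 0.92) and the tight junction gene Cldn5 from 7.0 to 36.5 (2.37 and 0.73). Apln, the gene of the angiogenic peptide apelin, rose from 19.5 to 40.1 (1.05 and 0.60), and the retinol carrier gene Rbp7 from 14.9 to 72.5 (2.28 and 0.96). Within endothelial-like cluster 1 Fabp4 was level, at 4702 and 5461 CPM (0.22), while the cluster itself grew, and Cldn5 rose there from 57.3 to 161 (1.47 and -0.10). Of 13 endocardial and valve endothelial genes 1 rose and 1 fell, against 2.94% and 1.47% of all copy-free genes. The 1 that fell was Hapln1, a hyaluronan link protein gene of the cushions (543 to 269, -1.01 and -0.79).

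Few matrix genes passed the rule in the low range. Among 29 interstitial matrix genes 0 rose and 1 fell (Spon1, 125 to 58.7 CPM), against 2.94% and 1.47% of all copy-free genes. The median was -0.15. The type I collagen genes had higher levels, Col1a2 at 1968 and 3276 (0.73 and 0.42) and Col1a1 at 918 and 1489.96 (0.70 and 0.74), short of 2-fold. In fibroblast-like cells Col1a2 stood at 3773 and 6234 (0.72) and in epicardial-like cells at 7891 and 15493 (0.97). Elastic fibre genes had a negative median too (14 genes, 0 rose, 1 fell, median -0.24; -0.44), with Eln at -0.57 and Mfap2 at -0.57. Basement membrane genes had a median of 0.37 (15 genes; 0.26 in the Lats1/2 CKO), 9 with intervals above 0 against 17.9% of all copy-free genes, and Col15a1, a vessel-associated collagen gene, rose from 16.6 to 72.5 (2.12 and 0.20). Of 17 valve mesenchyme genes 3 fell, against 1.47% of all copy-free genes (median -0.31, and -0.72 in the Lats1/2 CKO). They were Hapln1, the cartilage-type collagen gene Col9a1 (166 to 79.6, -1.05 and -1.26) and the homeobox gene Prrx2 (74.2 to 34.7, -1.08 and -1.32). Epicardial genes (14) had a median of -0.01 and 0 calls. In the Lats1/2 CKO the epicardial median was 0.89.

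Macrophage genes rose in 4 of 18 cases, against 2.94% of all copy-free genes (median 0.36, and 0.00 in the Lats1/2 CKO). Lysozyme, Lyz2, went from 29.1 to 105 CPM (1.85 and -0.24), and F13a1, a transglutaminase gene of resident macrophages, from 21 to 55.1 (1.39 and 0.53). Spp1, which encodes osteopontin, rose from 20.8 to 117 (2.49) and stood at 15.5 and 8.35 in the Lats1/2 CKO. Macrophage-like cells held 55 of its 95 UMIs at E13.5 and 190 of 195 at E14.5, and there it went from 449 to 3003 CPM (2.73, 2.3 to 3.2; -0.56). S phase genes in the low range had a median of -0.23 (-0.23), and imprinted growth genes of -0.25 (0.01), with 13 of 17 intervals below 0 (23.1% over all copy-free genes) and Igf2 at 8541 and 6086 CPM (-0.49).

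Clusters of the low-range cells were named from marker lists, and those with at most 2 of their leading and marker genes called within them were compared by share. Endothelial-like cluster 1 (Fabp4, Btnl9, Gpihbp1, Apln) grew from 103 cells (5.07%) to 142 (14.4%), a ratio of shares of 2.85 (2.2 to 3.71) and of 2.33 (1.85 to 2.93) in the Lats1/2 CKO. A second endothelial-like cluster, led by Gja4 and Prox1, had a ratio of 1.03 (0.761 to 1.39). Mural-like cluster 7 went from 253 cells (12.5%) to 43 (4.37%), a ratio of 0.351 (0.248 to 0.487) and 0.396 in the Lats1/2 CKO. Fibroblast-like cells grew from 10.8% to 15.6% (1.44, 1.17 to 1.78; 1.39), and macrophage-like cells from 2.61% to 4.27% (1.64; 1.53). Valve mesenchyme-like cluster 4 stood at 0.750 (0.503), endocardial-like cluster 0 at 0.805 (0.969), and an unnamed mesenchymal cluster led by Npy, Dpt and Lef1 at 0.553 (0.665). Epicardial-like cells had a ratio near 1 in the control (1.06, 0.724 to 1.52) and above 1 in the Lats1/2 CKO (1.75, 1.38 to 2.21). Shares are of sequenced cells over 1000 UMIs and add to 100%, so a fall in 1 cluster raises the others. A mural-like cluster with the pericyte genes Kcnj8 and Abcc9 held 23 and 51 control cells, but 6 of its 14 leading and marker genes differed within it, and its share is not compared.

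**Figure D5:**
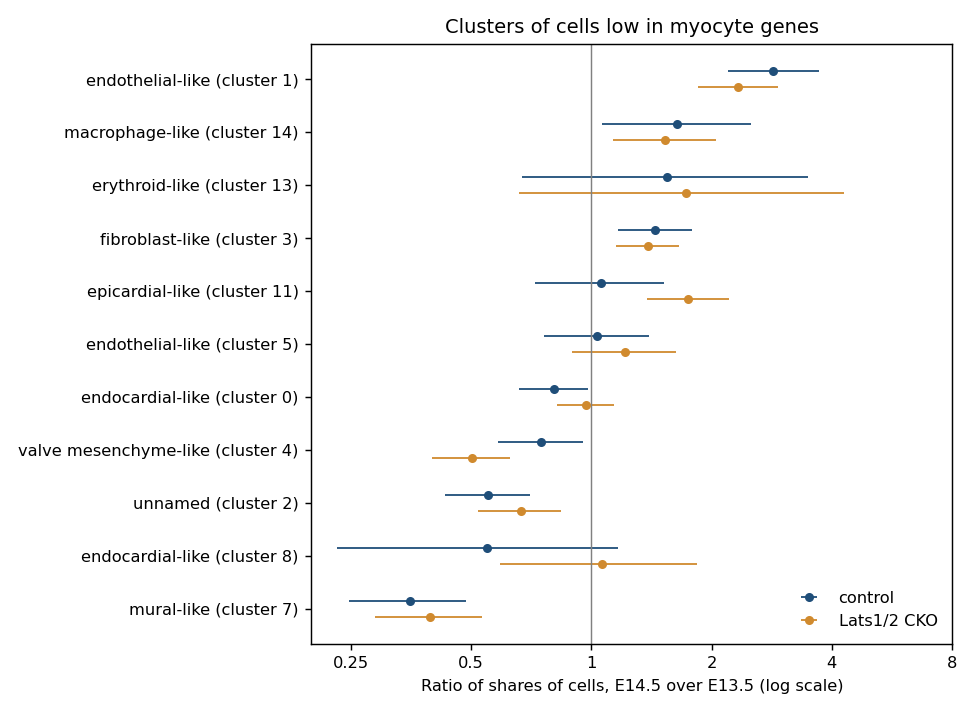
Ratio of the share of cells at E14.5 over that at E13.5 (log x axis) for the 11 of 15 clusters of cells low in myocyte genes whose shares are compared, with 95% counting intervals, in the control (blue) and Lats1/2 CKO (orange) pairs. Mural-like cluster 7 lies lowest of these at 0.351 in the control and endothelial-like cluster 1 highest at 2.85, and both have Lats1/2 CKO points on the same side of 1.

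Within clusters, between 10 and 50 genes passed the rule in both stage pairs, out of 3647 to 5251 copy-free genes tested (at least 50 CPM), many of them sarcomere genes as above. In fibroblast-like cells Ndn, an imprinted growth suppressor gene, fell from 208 to 95.5 CPM (-1.1, -1.82 to -0.48; -1.22), and Igfbp5 rose from 142 to 302 (1.1, 0.62 to 1.57; 1.1). The imprinted antisense transcript Kcnq1ot1 rose from 99.2 to 219 (1.14 and 1.18) in the same cells and in 2 other clusters. How reads were divided between it and its host gene was not tested. In fibroblast-like cells 3.64% of genes rose and 5.24% fell. In valve mesenchyme-like cluster 4, Id3 fell from 2894 to 1329 (-1.12 and -1.05), Rasl11b from 469 to 185 (-1.31 and -1.18) and Cnn1 from 323 to 135 (-1.23 and -1.09). The matrix gene Abi3bp rose there from 19.8 to 159.8 (2.97 and 2.32), over 9 and 19 UMIs, where 5.8% of genes rose and 3.66% fell.

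Both endothelial-like clusters had genes that fell in both stage pairs. Cluster 5, led by Gja4, Aqp8 and Prox1, carried 3 endocardial markers beside 6 endothelial ones. In cluster 1 the endocardial receptor gene Npr3 went from 57.3 to 17.9 CPM (-1.6 and -2.96), Hapln1 from 161 to 53.7 (-1.56 and -2.3) and Trim47 from 246 to 95.6 (-1.35 and -1.11), against 4.2% of genes that fell. Cluster 5 held 136 and 68 control cells, with 120330 UMIs behind its E14.5 values, so its falls rest on few UMIs and counting error is large. In cluster 5 Sox18, an endothelial transcription factor gene, fell from 220.03 to 66.5 (-1.65 and -1.55) and the cyclin A2 gene Ccna2 from 160.02 to 49.9 (-1.58 and -1.41). Yap1, the transcriptional coactivator that Lats kinases restrain, fell there from 153 to 66.5 (-1.13, -2.5 to -0.11; -1.66). The growth factor gene Hbegf rose in cluster 5 from 73.3 to 332 (2.17 and 1.08) and Igfbp5 from 310.04 to 756 (1.29 and 1.67), with 4.41% of genes rising and 4.45% falling. In endocardial-like cluster 0 the arterial connexin gene Gja4 fell from 235 to 89 (-1.36 and -1.21; 3.66% of genes fell). In cluster 1 Col1a2 rose from 32.7 to 278 (3.03 and 1.44), a fibroblast transcript at a low level in these cells. Fibroblast-like cells were a larger share at E14.5, and the part of RNA from other cells was not tested.

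In mural-like cluster 7 the early response genes Ier2 and Gadd45b fell from 1188 to 571 CPM (-1.04 and -1.04) and from 239.7 to 92.6 (-1.26 and -2.47), the latter over 140 and 6 UMIs, where 3.64% of genes fell. Macrophage-like cells had less Ier3 (727 to 205, -1.78 and -1.29) and less of the neutrophil and monocyte gene S100a8 (253 to 94.8, -1.32 and -4.28), among 3.55% of genes that fell. In epicardial-like cells the large scaffold gene Ahnak rose from 103 to 218 (1.09 and 1.2) and the stress regulator gene Nupr1 from 96 to 218 (1.18 and 1.12), with 5.48% of genes rising. Valve mesenchyme-like cluster 9 had more of the transcription factor genes Foxp1 (153 to 362, 1.26 and 1.13) and Sox5 (85.8 to 224, 1.41 and 1.33), where 5.34% rose. These 4 clusters held between 40 and 46 control cells at E14.5, so counting error is large.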

How the data were processed

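Single cells of 4 embryonic heart libraries (control and Lats1/2 CKO at E13.5 and E14.5) were measured by Drop-seq. The authors deposited raw UMI counts per gene and cell, and the submitters' processing notes name mm10, STAR and Picard without versions. The stage of the earlier libraries is E13.5 in the sample labels, which were followed, and e13.4 in the design text. Cells were kept with at least 1000 UMIs and at most 20% mitochondrial UMIs, and doublets were not removed. UMIs of all cells in a range or cluster were added up, and CPM was taken over retained genes. With 1 library per group no test was possible, so ratios carry exact conditional binomial 95% intervals with a prior count of 0.5 on the fold, and calls need 20 CPM (50 within clusters). The samples fall into 4 groups of 1 library, and intervals and floors (3 counts) cover counting error only.

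Members and lists were chosen with earlier results of these data known. Named genes are, in each range, the 12 with the highest and 12 with the lowest bound nearest 0 among called genes of at least 50 CPM, without globins, sex chromosome genes, the transgenes, the 4 selecting genes and genes with copies, and up to 4 members of each of 32 lists by level or with a call. Genes with copies are named apart, up to 10 in each range, at 200 CPM or more; a row that met this rule is not reported here. Copies were found by list and name and, after the data were seen, by sequence (BLAST+ 2.17.0+), which gave a second set of named genes; the genes described within clusters were picked after their values were seen from those called in both stage pairs. Control cells of each range were clustered with scanpy 1.11.5 (2000 variable genes, 30 components, 15 neighbours, Leiden resolution 1.0) without copy genes, clone names, cell cycle, sex or early response genes, and Lats1/2 CKO cells took the cluster of their 15 nearest control cells. A name needed at least 3 markers and over 50% of its list. On counts simulated with counting error only, 96 to 100% of genes changed by log2 1.5 or 2.0 were called in the right direction. At most 0.0264% of unchanged genes were called there. The simulation held no spread between hearts, cell mix or read handling, so it gives no rate of false calls for these data. Scaling alternatives used edgeR 4.0.16 and DESeq2 1.42.0 for size factors only, in R 4.3.3, and other steps Python 3.11.15 and scipy 1.17.1.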

Additional observations from a re-analysis of the deposited data

Results flagged for a closer look

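At 50 CPM or more in a control library, 4 genes changed at least 2-fold in opposite directions in the control and Lats1/2 CKO stage pairs. The difference itself was not tested. In myocyte-range cells the clone-named row RP23-478L20.1 had log2 ratios of 2.155 in the control and -1.575 in the Lats1/2 CKO, and another clone-named row of 2.07 and -1.43. In low-range cells these rows had 1.962 and -1.39, and 2.23 and -1.34. RP23-97L11.3 had 2.66 and -1.64 in low-range cells. Gins1, which encodes a subunit of the replication fork complex GINS, had 1.20 and -1.0 there and was the only one of these without a clone name. At 20 CPM or more, clone-named rows made up 6 of the 6 genes called in opposite directions in the myocyte range and 6 of 9 in the low range.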

How the results depend on the processing

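No paired analysis was possible because each group is 1 library and the labels give no shared replicate numbers. The cause of the changes below was not tested unless the setting itself changes which genes or named clusters are counted. In myocyte-range cells the counts of higher and lower genes were 347 and 76 at a minimum of 10 CPM, 92 and 23 at 50 CPM, 764 and 158 with no minimum, and 96 and 30 in the Lats1/2 CKO libraries. Lower genes were 138 with cells thinned to 1000 UMIs, 74 with cells weighted equally and 79 with clusters weighted as at E13.5. Without genes with a copy, chosen after the data were seen, 117 were higher. In low-range cells the counts were 129 and 44 at 50 CPM and 718 and 254 with no minimum. Lower genes were 169 at 10 CPM, 61 and 163 with a minimum of 500 or 2000 UMIs per cell and 205 with thinned cells, and 162 were higher in the Lats1/2 CKO.

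Over all clusters of 1 name together, ratios of shares were 1.82 (endothelial-like), 0.704 (mural-like), 3.62 (cardiomyocyte-like), 0.784 (endocardial-like), 0.780 (valve mesenchyme-like) and 1.44 (fibroblast-like). They include valve mesenchyme-like cluster 9, cardiomyocyte-like cluster 10 and mural-like cluster 12, whose shares were not compared above. The ratios moved to 2.92 (endothelial-like) and 0.351 (mural-like) at resolution 0.5. There the cluster led by Cyp26b1 (179 and 86 cells) was unnamed, and the mural-like name held 253 and 43 cells, as cluster 7 does alone. At resolution 2.0 the ratios were 7.70 (cardiomyocyte-like), 0.575 (endocardial-like) and 0.619 (valve mesenchyme-like). With thinned cells they were 2.99 (endothelial-like), 0.393 (mural-like) and 1.79 (fibroblast-like). In the Lats1/2 CKO libraries the sign turned in the myocyte range for RP23-402P24.7 (-0.23), Mir692-1 (-0.86), Aldoart1 (-0.31), RP23-478L20.1 (-1.58), another clone-named row (-1.43), Mfap4 (-0.58), Col3a1 (-0.45), Mest (0.083) and Aqp4 (0.26). It turned in the low range for RP23-207N2.1 (-0.14), Mir692-1 (-0.99), RP23-97L11.3 (-1.64) and Spp1 (-0.85). Over all settings, 37 named myocyte-range genes gave 597 values on the same side of the rule, 23 under it and 9 reversed. The 36 named low-range genes gave 584, 24 and 4. These totals include the settings that changed only the CPM minimum, which left every ratio and interval as it was. The named genes lie above each minimum tried. All 37 and all 36 were therefore on the same side under each such setting by construction, which says nothing of robustness. Depth limits genes under 20 CPM and clusters of few cells.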
